A study of Rattus norvegicus with 183 samples.

Results

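The interpeduncular nucleus is a midline nucleus at the floor of the midbrain, next to the ventral tegmental area, and the 60 libraries described here are those in which the messenger RNA of its marker gene Chrna2 was most and least abundant. Chrna2 encodes the nicotinic acetylcholine receptor subunit alpha2. The libraries come from RNA of the posterior ventral tegmental area, the hind portion of a dopamine region, selected for polyA tails and sequenced from outbred heterogeneous stock rats, a laboratory population descended from several inbred strains. The labels name this tissue only, and give no treatment, genotype, sex or age. Of 183 samples described, 152 have values and the other 31, labelled as removed, are not analysed here. In 141 libraries Th, the gene of tyrosine hydroxylase and so the mark of dopamine neurons, reached at least 10 counts per 1000000 (CPM), and in 11 it did not. The 141 were ranked by Chrna2, and the 30 highest are called Chrna2-high libraries and the 30 lowest Chrna2-low libraries, which left 81 on neither side.

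The libraries were chosen by their Chrna2 and Th values, so the levels of Chrna2 are a description. Chrna2 (chromosome 15, position 44517862) had 53.7, 62.7 and 114 CPM as the lowest, median and highest value in Chrna2-high libraries, against 0, 1.33 and 4.79 CPM in Chrna2-low libraries. The library just outside the Chrna2-high side had 53.2 CPM and the one just outside the Chrna2-low side 4.93 CPM, so neither limit lies at a gap. The libraries on neither side had a median of 23.7 CPM. In the 1 library with no Chrna2 count, a count of 0 allows up to 0.0972 CPM (3 counts), and this limit was 0.0552 to 0.198 CPM over the 60 libraries, for counting error only.

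Neurons of the interpeduncular nucleus receive acetylcholine and glutamate from the medial habenula through the fasciculus retroflexus, and most of them release GABA. Nicotinic receptors that contain the subunits alpha3, beta4 and alpha5 are dense in this pathway, which is known for its part in nicotine aversion and withdrawal, and in rodents alpha2 is strongly expressed in the nucleus. A nicotinic receptor is a channel of 5 subunits that acetylcholine opens. In bulk tissue, fewer cells of a type and less RNA per cell cannot be told apart, and a difference between animals cannot be told apart from 1 in how the piece was cut.

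The promoters of Chrnb4 (nicotinic subunit beta4), Otp, Epyc and Nhlh1 are shown because these are genes with large differences between the sides in groups described further on, a receptor, a homeobox factor, an extracellular matrix protein and a neuronal basic helix-loop-helix factor. Each stretch runs from 250 bases before to 50 bases after the start in RefSeq's promoter table (GRCr8), on the coding strand. For Chrnb4 this start (64333109) lies 210 bases inside the gene's end in the RefSeq gene table (64333319), and for the other 3 genes both tables give 1 position. Capitals mark 4 motifs, each searched on both strands. The motif TAATTA is a core bound by many homeobox factors. The motif CAGCTG is a form of the E-box, and other forms were not searched. The core of a TATA box is the motif TATAAA, and a GC box is the motif GGGCGG. Chrnb4 lies at chr8:64333060-64333359 on the minus strand, Otp at chr2:27842642-27842941 on the plus strand, Epyc at chr7:34323082-34323381 on the plus strand and Nhlh1 at chr13:87054885-87055184 on the minus strand.
Chrnb4: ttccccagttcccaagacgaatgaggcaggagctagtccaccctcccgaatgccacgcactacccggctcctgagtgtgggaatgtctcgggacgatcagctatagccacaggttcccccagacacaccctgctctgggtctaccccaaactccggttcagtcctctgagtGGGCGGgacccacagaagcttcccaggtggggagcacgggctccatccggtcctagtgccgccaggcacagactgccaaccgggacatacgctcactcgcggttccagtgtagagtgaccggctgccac
Otp: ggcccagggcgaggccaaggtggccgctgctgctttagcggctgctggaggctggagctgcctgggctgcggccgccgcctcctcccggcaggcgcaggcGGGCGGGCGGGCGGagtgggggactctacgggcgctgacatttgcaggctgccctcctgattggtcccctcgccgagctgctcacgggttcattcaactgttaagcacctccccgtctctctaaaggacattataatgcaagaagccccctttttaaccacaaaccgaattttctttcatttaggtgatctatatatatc
Epyc: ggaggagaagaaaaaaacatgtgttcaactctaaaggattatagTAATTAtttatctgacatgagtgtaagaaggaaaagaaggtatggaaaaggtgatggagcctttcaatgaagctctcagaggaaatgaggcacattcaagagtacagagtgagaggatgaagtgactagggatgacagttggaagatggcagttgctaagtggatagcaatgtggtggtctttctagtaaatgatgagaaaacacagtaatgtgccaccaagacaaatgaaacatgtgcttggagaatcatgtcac
Nhlh1: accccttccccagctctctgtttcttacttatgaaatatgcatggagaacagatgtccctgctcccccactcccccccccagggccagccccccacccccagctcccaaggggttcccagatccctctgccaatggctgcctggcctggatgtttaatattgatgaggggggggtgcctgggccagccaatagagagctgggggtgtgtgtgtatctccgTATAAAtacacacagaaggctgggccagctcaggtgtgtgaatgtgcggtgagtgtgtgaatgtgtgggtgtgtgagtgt
The window of Chrnb4 holds 1 GGGCGG, that of Otp 3 overlapping copies, that of Epyc 1 TAATTA and that of Nhlh1 1 TATAAA. Of 33469 promoters of this length in the RefSeq table, 5.36% hold TAATTA, 15.1% CAGCTG, 14.2% TATAAA and 33.1% GGGCGG. The matches are descriptions of the sequence. Of the 15 genes with the largest positive differences, 12 have a sequence in that table, and Chrna2 and others without one are only named.

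The sides were alike in depth. Chrna2-high libraries held 18.5 to 49.9 M (1e6) estimated counts (median 24.7 M) and Chrna2-low libraries 15.2 to 54.4 M (median 23.7 M; two-sided permutation p = 0.345). Apart from relabelling notes, libraries differ in their labels by the form of the identifier alone, which was decimal in 12 and hexadecimal in 18 Chrna2-high libraries, and decimal in 7 and hexadecimal in 23 Chrna2-low libraries (two-sided Fisher's exact p = 0.267). Xist, the X-inactivation transcript of females, exceeded 10 CPM in 18 Chrna2-high and 17 Chrna2-low libraries (two-sided Fisher's exact p = 1.0), and 1 Chrna2-low library also had more than 1 CPM of the Y-linked gene Ddx3y. A relabelling or recovery note stood on 6 Chrna2-high and 2 Chrna2-low libraries, and 1 library of each side had over 100 CPM of the cortical glutamate transporter gene Slc17a7. Another Chrna2-low library stood apart with 11987 CPM of the choroid plexus gene Ttr. No label gives a batch or says that a library is 1 animal, so p-values measure the spread between libraries.

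Differences are given as Chrna2-high minus Chrna2-low in log2(CPM + 1), with the standard error (SE) and the Benjamini-Hochberg adjusted p of a limma fit that holds the identifier format as a covariate. This scale understates changes of low genes. Of 15535 genes tested, 10383 (66.8%) had an adjusted p under 0.05, of which 7567 (48.7%) were higher and 2816 (18.1%) lower, so a small difference is not special to a gene. The median of all genes was 0.126, and with median-of-ratios size factors it was 0.007, with 5100 genes (32.8%) higher and 4870 (31.3%) lower. Higher genes were then 51.2% of those called, against 72.9%. A difference of at least 1, a limit chosen after the values were seen, was reached by 483 genes (3.11%), 420 higher (2.7%) and 63 lower (0.406%). The sides did not overlap for 89 genes (0.573%). The lowest Chrna2-high library exceeded the highest Chrna2-low library for 88 of them (0.566%). The opposite held for 1 gene (0.00644%), the oxygen-sensing prolyl hydroxylase gene Egln3, which had 19.9, 29.4 and 39.1 CPM (lowest, median, highest) in Chrna2-high and 39.4, 57.4 and 85.1 CPM in Chrna2-low libraries (-0.91, SE 0.07, adjusted p = 1.37e-16).

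The 3 genes of the nicotinic subunits dense in the habenula pathway to the nucleus, Chrna3, Chrnb4 and Chrna5, all rose. Their median difference was 1.48, against 0.126 for all genes, of which 48.7% rose. They lie side by side on chromosome 8. Chrnb4 had 19.2, 28.9 and 48.2 CPM in Chrna2-high libraries, against 0.551, 3.66 and 17.7 CPM in Chrna2-low libraries. No library of one side overlapped the other, and the difference was 2.69 (SE 0.19, a 6.44-fold change on this scale, adjusted p = 1.08e-18). Chrna3, the alpha3 subunit gene, had 20.4, 27.2 and 43.1 CPM against 6.26, 13.5 and 30.3 CPM, and the sides overlapped, with 9 Chrna2-high libraries above every Chrna2-low one (1.14, SE 0.12, adjusted p = 5.38e-12). Chrna5, an accessory subunit gene, had 41.2, 73.6 and 127 CPM in Chrna2-high and 5.03, 27.6 and 84.6 CPM in Chrna2-low libraries (1.48, SE 0.18, adjusted p = 2.53e-10). Both of these neighbours overlapped between the sides where Chrnb4 did not, a contrast that was not itself tested. Chrna5 also varied within the Chrna2-low side. The library there with the most Chrna5, 84.6 CPM, had 1428 CPM of the dopamine transporter gene Slc6a3. The one with the least, 5.03 CPM, had 38.2 CPM of Slc6a3. Whether Chrna5 moves with dopamine neurons was not tested, so its rise is not particular to the habenula pathway.

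Among the 6 other nicotinic subunit genes tested, 3 rose and 0 fell (median 0.41, against 0.126 for all genes). The share that rose is near the 48.7% of all genes. Chrnb2, the beta2 subunit gene of most brain nicotinic receptors, had medians of 59.1 CPM in Chrna2-high and 27.8 CPM in Chrna2-low libraries (1.14, SE 0.2, adjusted p = 2.08e-06). The 2 others that rose were Chrna6 (0.70, SE 0.18, adjusted p = 0.000505) and Chrnb3 (0.72, SE 0.15, adjusted p = 3.39e-05), subunits of dopamine neurons. Chrna4 differed by 0.12 (SE 0.07, adjusted p = 0.145), with 92.8 to 219.9 CPM in Chrna2-high and 103 to 237 CPM in Chrna2-low libraries. Chrna7, the gene of the homomeric alpha7 receptor, differed by -0.04 (SE 0.05, adjusted p = 0.525), and with median-of-ratios factors it was called lower (-0.17). Another 6 subunit genes were too low to test.

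**Figure D1:**
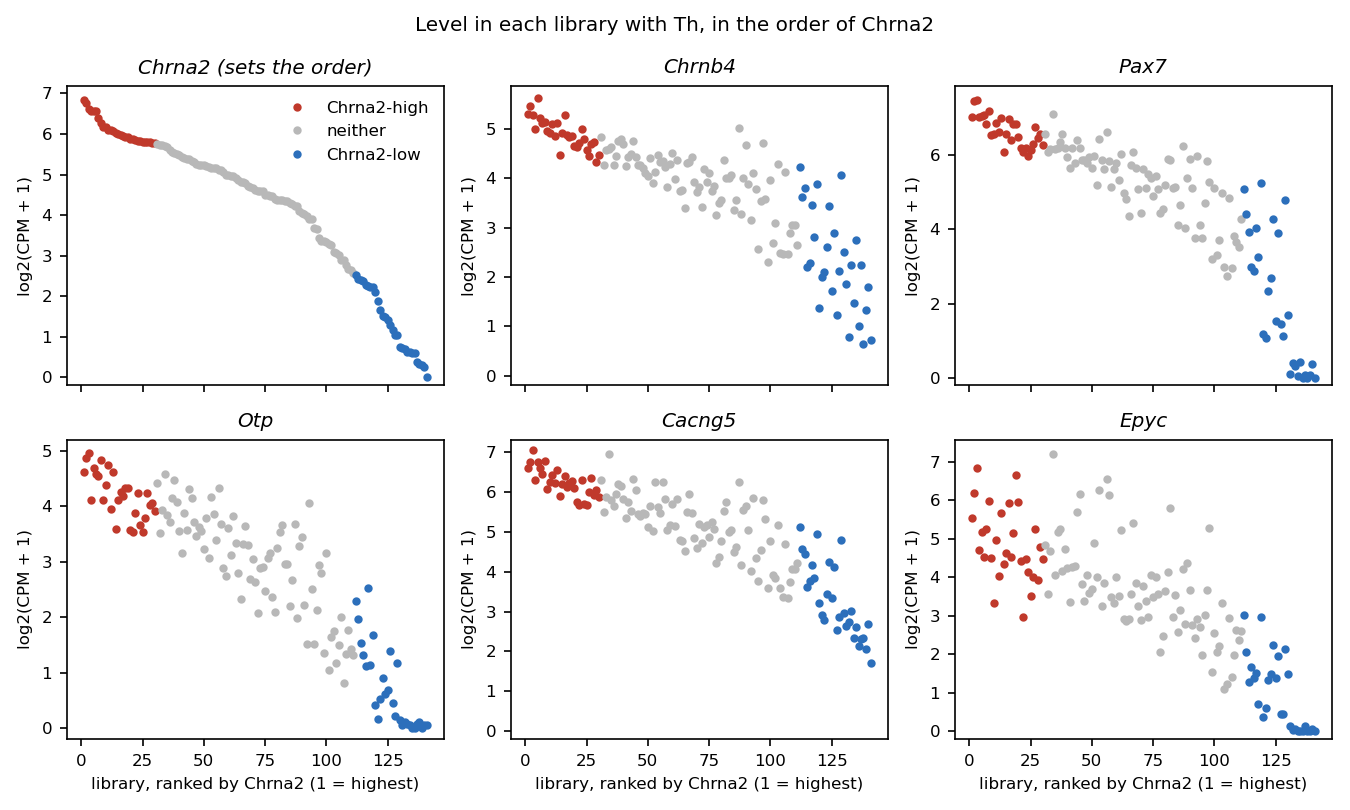
Level of Chrna2, Chrnb4, Pax7, Otp, Cacng5 and Epyc in each of the 141 libraries with Th (vertical axis log2(CPM + 1); horizontal axis library rank by Chrna2, 1 the highest); red points are the 30 Chrna2-high, grey the 81 on neither side and blue the 30 Chrna2-low libraries. Chrna2 sets the order and declines without a break, and Pax7, with a median of 95.4 CPM on the Chrna2-high side and 1.83 CPM on the Chrna2-low side, reaches 0 at the right end.

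Most genes used as markers of interpeduncular neurons were higher in Chrna2-high libraries. Of the 13 in the list, 9 rose, 2 fell and 2 did not pass the test (median 1.35). Over all genes 48.7% rose and 18.1% fell (median 0.126), so the share that fell is near that of all genes. A rise of at least 1 was reached by 8 of the 13, against 2.7% of all genes. Pax7, a paired homeobox factor that marks interpeduncular neurons during development, had the largest positive difference of all genes tested. It had 61.4, 95.4 and 177 CPM in Chrna2-high libraries, against 0, 1.83 and 36.8 CPM in Chrna2-low libraries, of which 11 lay under 1 CPM and 3 at 0. The sides did not overlap, and the difference was 4.73 (SE 0.33, 26.6-fold, adjusted p = 1.12e-18).

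Otp, a homeobox factor also found in hypothalamic neurons, had 10.6, 17.6 and 29.99 CPM in Chrna2-high and 0, 0.35 and 4.76 CPM in Chrna2-low libraries, 20 of which were under 1 CPM. Again no library of one side reached the other (3.54, SE 0.16, adjusted p = 2.46e-27). Epyc, which encodes the small proteoglycan epiphycan, had 6.88, 24.4 and 113 CPM against 0, 0.582 and 7.11 CPM, with an overlap of 1 library from each side (3.92, SE 0.24, adjusted p = 4.21e-21). The spread of Epyc among Chrna2-high libraries, from 6.88 to 113 CPM, was wider as a ratio than that of Pax7 or Otp.

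Nos1, the neuronal nitric oxide synthase gene, had medians of 152 CPM in Chrna2-high and 53.9 CPM in Chrna2-low libraries (1.58, SE 0.14, adjusted p = 4.03e-14). Oprm1, the mu opioid receptor gene, had 1.08, 4.83 and 10.9 CPM against 0, 0.831 and 3.27 CPM (1.54, SE 0.15, adjusted p = 1.15e-13). The transcription factor genes Irx2 (1.47) and Nkx6-1 (1.35), the somatostatin gene Sst (1.19) and the cell adhesion gene Amigo1 (0.62) also rose. With the formats fitted apart, Sst differed by 2.26 in decimal libraries and by 0.72 in hexadecimal ones, where it was not called (adjusted p = 0.0837). For Sst, 2 Chrna2-low libraries lay above every Chrna2-high one. Etv1 (-0.43, adjusted p = 7.14e-07) and the corticotropin-releasing factor receptor gene Crhr1 (-0.44, adjusted p = 0.000139) fell, and both have been used to mark particular interpeduncular cells in mice. Glp1r, the glucagon-like peptide 1 receptor gene, had medians of 1.49 CPM in Chrna2-high and 1.11 CPM in Chrna2-low libraries (adjusted p = 0.172), and Sall3 medians of 9.53 and 8.84 CPM in the same order (adjusted p = 0.124).

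Further transcription factors and receptors had large positive differences. Nhlh1 had 20.6, 29.7 and 50.1 CPM in Chrna2-high and 0, 0.81 and 26.3 CPM in Chrna2-low libraries, and the sides overlapped (3.54, SE 0.29, adjusted p = 3.72e-16). Cacng5, an auxiliary subunit gene of AMPA glutamate receptors, had medians of 74.3 CPM in Chrna2-high and 6.9 CPM in Chrna2-low libraries and did not overlap (3.02, SE 0.18, adjusted p = 4.65e-22).

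Chrnb4 (above) belongs to the same 15 genes. Also among them were the transcription factor genes Pou4f2 (2.60), Pax3 (2.59) and Foxd4 (2.36), the AMPA receptor partner gene Shisa6 (2.28), the phosphodiesterase gene Pde3a (2.28) and Islr2 (2.44), which encodes a leucine-rich membrane protein that in mice guides axons. Shisa6 had 128, 156 and 253 CPM in Chrna2-high and 9.93, 34.6 and 77.7 CPM in Chrna2-low libraries. Cyp11b1 (2.70) and Cyp11b2l1 (2.41), of the steroid 11-beta-hydroxylase family, were among the 15 too. These 2 are near copies of each other, so how reads were split between them is uncertain.

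GABA neuron genes rose in 6 of 9 cases and fell in 1 (median 0.74), against 48.7% and 18.1% of all genes (median 0.126). Gad1, a GABA synthesis gene, had 296, 417 and 614 CPM in Chrna2-high and 49.5, 167 and 517 CPM in Chrna2-low libraries, and 2 Chrna2-low libraries reached into the Chrna2-high range (1.34, SE 0.13, adjusted p = 1.06e-12). The homeobox genes Lhx5 (1.93) and Lhx1 (1.38) did not overlap between the sides. Lhx5 had medians of 21.2 CPM in Chrna2-high and 5.48 CPM in Chrna2-low libraries. Gad2 and the vesicular transporter gene Slc32a1 rose by 0.91 and 0.46, although Gad2 differed by -0.10 when the decimal libraries were fitted alone. Gata3, a factor of midbrain GABA neurons, fell (-0.69, SE 0.13, adjusted p = 7.87e-06).

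Slc6a5, the neuronal glycine transporter gene, was looked up after its values were seen. It had 9.33, 14.4 and 24.0 CPM in Chrna2-high and 0.877, 3.63 and 8.84 CPM in Chrna2-low libraries, without overlap (1.93, SE 0.13, adjusted p = 1.57e-19). Of the 3 vesicular glutamate transporter genes, Slc17a6, typical of subcortical neurons, fell. It had 56.3, 118 and 195 CPM in Chrna2-high and 78.6, 215 and 388 CPM in Chrna2-low libraries, with overlap (-0.87, SE 0.12, adjusted p = 4.97e-09). Slc17a8 rose by 0.53 (adjusted p = 3.32e-06), and Slc17a7 did not pass the test (0.06, SE 0.49, adjusted p = 0.917).

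The subunits that attach to GABA-B receptors and shape their response rose in all 3 cases. The list with the receptors had 4 of 5 higher (median 0.85), against 48.7% of all genes (median 0.126). Kctd12 had 65.4, 86.8 and 122 CPM in Chrna2-high and 30.8, 40.9 and 62.95 CPM in Chrna2-low libraries, without overlap (1.03, SE 0.07, adjusted p = 1.1e-20). Kctd8 (1.02) and Kctd16 (0.85) rose too. Of the receptor genes, Gabbr2 rose by 0.28 (adjusted p = 0.000664). Gabbr1 differed by 0.02 (SE 0.04, adjusted p = 0.728), and by -0.12 with median-of-ratios size factors.

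Genes of medial habenula neurons, whose axons end in the nucleus, were mixed, with 5 of 9 higher and 2 lower (median 0.29), or 3 and 3 with median-of-ratios factors, near the shares of all genes. Gpr151, a receptor gene nearly specific to habenula neurons, was at 0.0688 to 0.913 CPM in Chrna2-high and 0 to 0.491 CPM in Chrna2-low libraries and was too low to test. Lrrc55 had medians of 68.4 CPM in Chrna2-high and 35.9 CPM in Chrna2-low libraries (0.89, adjusted p = 3.64e-12), and Nwd2 rose by 0.59. Gng8, a G protein subunit gene, fell (-0.57, adjusted p = 2.17e-05). Pou4f1, a habenula transcription factor gene, differed by 0.03 (SE 0.21, adjusted p = 0.895). The choline transporter gene Slc5a7 rose (0.88, adjusted p = 0.000105), but differed by 0.05 in decimal libraries fitted alone (adjusted p = 0.953) and by 1.24 in hexadecimal ones. Chat, the acetylcholine synthesis gene, fell (-0.42, adjusted p = 0.0348), with a median of 1.23 CPM in Chrna2-high and 1.5 CPM in Chrna2-low libraries. The highest Chrna2-low library had 33.1 CPM. With the formats fitted apart Chat was called in neither (decimal -1.01, adjusted p = 0.0761, hexadecimal -0.16, adjusted p = 0.335). Of the 4 genes tested in a list of cholinergic and oculomotor neurons, which holds Slc5a7 and Chat, 1 rose and 2 fell. The shares over all genes were 48.7% and 18.1%.

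**Figure D2:**
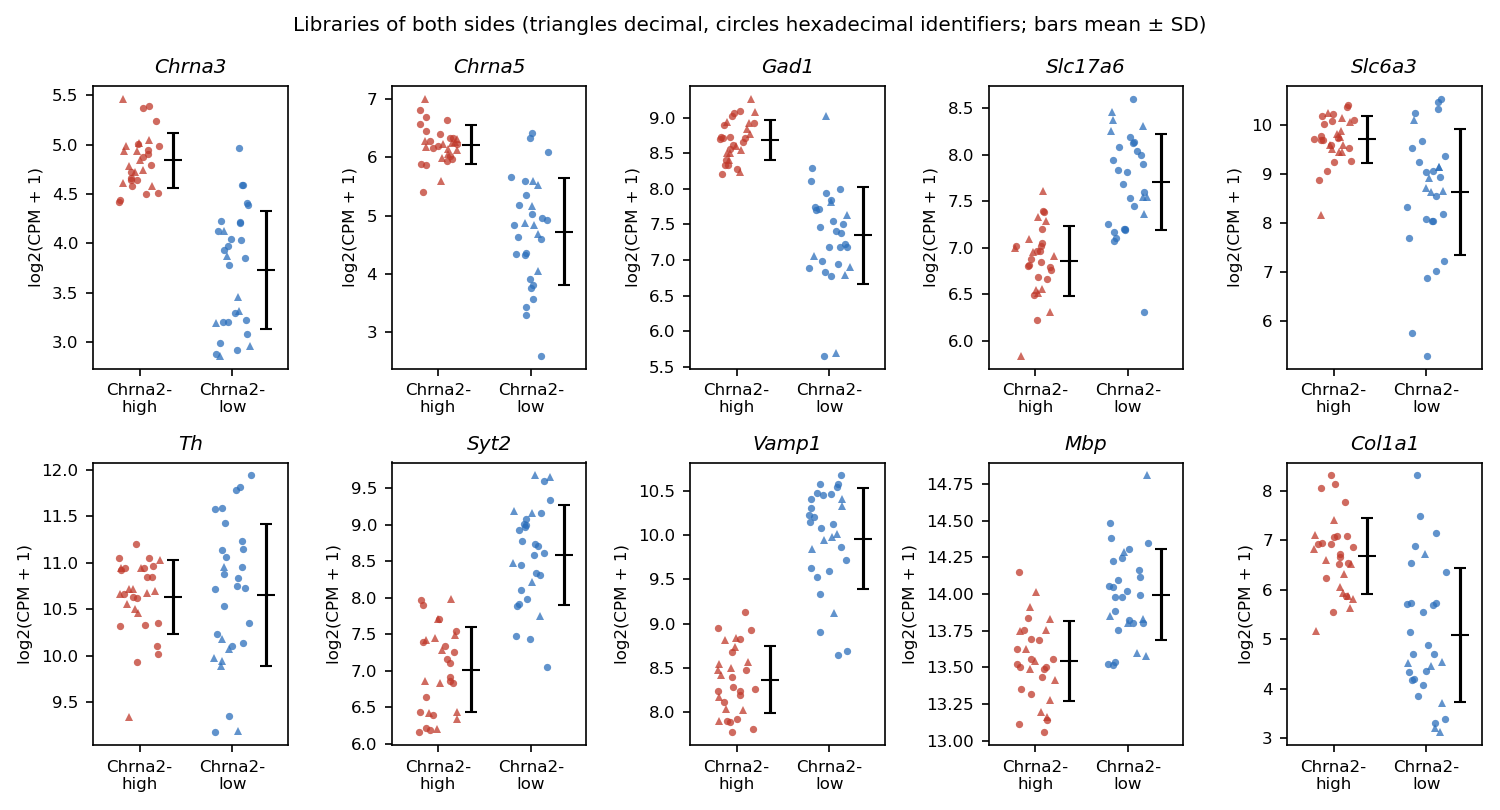
Level of 10 genes in the 30 Chrna2-high (red, left) and 30 Chrna2-low libraries (blue, right), as log2(CPM + 1); triangles are libraries with decimal and circles with hexadecimal identifiers, black bars the mean and SD. Chrna3, Chrna5, Gad1, Slc6a3 and Col1a1 lie higher on the left, Slc17a6, Syt2, Vamp1 and Mbp lower, and Th differs by 0.04.

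Dopamine neuron genes, whose presence chose the 141 libraries through Th, rose in 10 of 19 cases and fell in 0 (median 0.34). The share that rose is near the 48.7% of all genes. Th had 647, 1644 and 2363 CPM in Chrna2-high and 577, 1708 and 3934 CPM in Chrna2-low libraries (0.04, SE 0.15, adjusted p = 0.822). Slc6a3, the dopamine transporter gene, had 288, 848 and 1357 CPM against 38.2, 454 and 1491 CPM (1.05, SE 0.25, adjusted p = 0.000208). The Chrna2-low libraries were the more spread for both genes. Gch1, needed for the cofactor of dopamine synthesis, rose by 1.04, the retinal dehydrogenase gene Aldh1a1 by 0.74 and the transcription factor gene Sox6 by 0.70. The factor genes En1 (adjusted p = 0.988) and Otx2 (0.01, adjusted p = 0.934) did not pass the test.

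Transcription factor genes that divide the brainstem and forebrain into regions rose in 14 of 25 cases and fell in 3 (median 0.46), counts near the 48.7% higher and 18.1% lower of all genes. Large rises were more frequent. A rise of at least 1 was reached by 9 of the 25, against 2.7% of all genes. The sides did not overlap for 4 of them, against 0.566% of all genes. Besides those named above, Pax5 (1.32), Pax8 (1.16) and En2 (0.73), factors of the midbrain-hindbrain boundary, and Irx1 (1.33) rose. Pax5 had medians of 53.7 CPM in Chrna2-high and 22.9 CPM in Chrna2-low libraries. Nkx2-2 (-0.52) and Foxa2 (-0.46), factors of the ventral midline, fell.

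Of 5 serotonin neuron genes listed, the 3 tested all rose, against 48.7% of all genes. Fev and Htr5b were too low to test. Fev had medians of 0.272 CPM in Chrna2-high and 0.0496 CPM in Chrna2-low libraries, and Htr5b 0.0912 and 0.199 CPM in the same order. The receptor gene Htr1a, which other neurons also use, had 46.6, 57.8 and 90.4 CPM in Chrna2-high and 6.81, 11.01 and 33.5 CPM in Chrna2-low libraries, without overlap (2.17, SE 0.12, adjusted p = 2.34e-23). The serotonin synthesis gene Tph2 overlapped widely, with 0.407, 3.6 and 48.6 CPM against 0.124, 1.17 and 40.6 CPM (1.11, SE 0.32, adjusted p = 0.0019). Slc6a4, the serotonin transporter gene, had medians of 2.56 CPM in Chrna2-high and 0.279 CPM in Chrna2-low libraries (0.99, SE 0.31, adjusted p = 0.00475). With the formats fitted apart, Slc6a4 differed by 1.79 in decimal libraries and by 0.64 in hexadecimal ones, where it was not called (adjusted p = 0.141).

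Neuropeptide genes rose in 10 of 17 cases and fell in 3 (median 0.39), again near the shares of all genes (48.7% and 18.1%). A rise of at least 1 was reached by 4 of the 17, against 2.7% of all genes, and such a fall by 1, against 0.406%. The enkephalin gene Penk had 36.6, 103 and 188 CPM in Chrna2-high and 8.34, 31.5 and 69.3 CPM in Chrna2-low libraries (1.6, SE 0.17, adjusted p = 3.64e-12). Pnoc, the nociceptin gene, had medians of 33.7 CPM and 10.1 CPM in the same order (1.51, SE 0.16), Vip rose by 1.07 and the dynorphin gene Pdyn by 0.95. Both sides overlapped for each of these 4 genes. Cartpt, the gene of a peptide abundant in the hypothalamus and the Edinger-Westphal nucleus, had the largest negative difference. It had 0.951, 2.41 and 19.9 CPM in Chrna2-high and 1.18, 17.2 and 613 CPM in Chrna2-low libraries (-2.97, SE 0.45, adjusted p = 1.01e-07), a side that covered a wide range. In the fit with Syt2 as a covariate, described further on, Cartpt differed by -1.05 and was not called (adjusted p = 0.196).

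Peptide receptor genes rose in 11 of 18 cases and fell in 4 (median 0.27), or 8 and 4 with median-of-ratios factors, against 48.7% and 18.1% of all genes, or 32.8% and 31.3% with those factors. Tacr3, the neurokinin B receptor gene, had 52.4, 74.9 and 103 CPM in Chrna2-high and 2.45, 20.6 and 74.7 CPM in Chrna2-low libraries (1.77, SE 0.22, adjusted p = 3.86e-10). The somatostatin receptor gene Sstr5 (1.37) and the cholecystokinin receptor gene Cckar (1.25) rose. Cckbr, the other cholecystokinin receptor gene, had medians of 1.61 CPM in Chrna2-high and 4.06 CPM in Chrna2-low libraries and fell (-1.02, SE 0.14, adjusted p = 1.84e-08).

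Genes of large, fast-firing projection neurons were the main group that was lower in Chrna2-high libraries, with 0 of 8 higher and 7 lower, or 8 lower with median-of-ratios factors (median -1.50, against 0.126 for all genes). Syt2, a fast calcium sensor of transmitter release, had 70.4, 128 and 252 CPM in Chrna2-high and 131, 402 and 815 CPM in Chrna2-low libraries (-1.6, SE 0.16, adjusted p = 1.17e-12). Vamp1, a synaptic vesicle fusion gene, had 217, 322 and 561 CPM against 397, 1098 and 1639 CPM (-1.6, SE 0.13, adjusted p = 8.85e-17). Scn4b, a sodium channel subunit gene, had medians of 45.8 CPM and 199 CPM in the same order (-2.09, SE 0.25, adjusted p = 1.21e-10). All 3 genes overlapped between the sides, and all 30 Chrna2-high libraries lay below the Chrna2-low median of Syt2 and Vamp1.

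The calcium-binding protein genes Cabp7 (-1.74) and Pvalb (-1.14), the neurofilament gene Nefh (-1.41) and Spp1 (-0.85, adjusted p = 0.0162) fell too, and Esrrg did not pass the test (-0.18, SE 0.1, adjusted p = 0.12). Nefh had medians of 341 CPM in Chrna2-high and 959 CPM in Chrna2-low libraries. With Syt2 as a covariate, a fit added after these values were seen, Vamp1 was still lower (-0.60, adjusted p = 0.000133). Cabp7 (-0.17, adjusted p = 0.597) was not called. The others of the list turned positive. Nefh (0.49, adjusted p = 0.031), Spp1 (1.24, adjusted p = 0.0094) and Esrrg (0.63, adjusted p = 4.88e-06) were then called higher. Scn4b (0.17, adjusted p = 0.37) and Pvalb (0.04, adjusted p = 0.912) were not called.

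Other genes with the largest negative differences encode secreted synaptic organisers of the C1q family. C1ql4 had 0, 0.418 and 3.9 CPM in Chrna2-high and 0, 8.48 and 20.9 CPM in Chrna2-low libraries (-2.24, SE 0.22, adjusted p = 9.82e-13). C1ql2 (-2.04) and Cbln1 (-1.81) fell as well. Plvap, the gene of a diaphragm protein of fenestrated vessels, had medians of 6.45 CPM in Chrna2-high and 27.2 CPM in Chrna2-low libraries (-1.64, SE 0.15, adjusted p = 1.54e-14).

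Grifin (-2.17), of the galectin family, Mdfic2 (-1.70) and the forebrain factor gene Six3 (-1.64) were also among the 15, as were Hsp90aa1-ps17 (-2.09), LOC134486537 (-2.76) and LOC134479241 (-2.55). With Syt2 as a covariate Mdfic2 was not called (-0.14, adjusted p = 0.719). Hsp90aa1-ps17 is named as a pseudogene and may share reads with its parent gene, so its level is uncertain. LOC134486537 had medians of 0 CPM in Chrna2-high and 0.615 CPM in Chrna2-low libraries, and its difference was -0.04 in decimal and -3.94 in hexadecimal libraries fitted apart. In the same order, LOC134479241 differed by -0.68 (adjusted p = 0.335) and -3.37, and Hsp90aa1-ps17 by -1.28 (adjusted p = 0.193) and -2.44, so none of these 3 was called in decimal libraries alone. Of 5 hypothalamic or mammillary genes tested, 3 fell (median -0.19), Cartpt among them, against 18.1% of all genes.

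Genes of some cells other than neurons moved with the sides as well. All 8 genes of meningeal fibroblasts, the collagen-making cells of the brain's covering, rose (median 1.75), against 48.7% of all genes. Their summed level was 393 to 4123 CPM in Chrna2-high libraries (median 969) and 63.2 to 3093 CPM in Chrna2-low libraries (median 213), and none was at 0 throughout. Col1a1, a collagen gene, had 34.9, 103 and 317 CPM in Chrna2-high and 7.68, 25.0 and 317 CPM in Chrna2-low libraries (1.74, SE 0.27, adjusted p = 1.34e-07). Lum, a matrix proteoglycan gene, rose by 2.08 and the growth factor gene Igf2 by 1.93.

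With Col1a1 as a covariate, a fit added after these values were seen, 4099 of all genes were higher and 1383 lower. Of the other 7 meningeal genes 1 was still called. Pax7 then differed by 5.24, Otp by 3.72, Chrnb4 by 2.77 and Chrna3 by 1.19, each above its value without the covariate. Other genes differed by less than without it, Nos1 by 1.04 (1.58 without), Chrna5 by 1.26 (1.48), Oprm1 by 1.26 (1.54), Chrnb2 by 0.83 (1.14) and Pde3a by 1.76 (2.28). Gfap, the intermediate filament gene of fibrous and surface astrocytes, had 1088, 1762 and 4352 CPM in Chrna2-high and 209, 597 and 2462 CPM in Chrna2-low libraries (1.63, SE 0.19, adjusted p = 7.06e-11). With that covariate the difference of Gfap was 0.69. Of 8 astrocyte genes 4 rose and 0 fell (median 0.18), a share of risen genes near the 48.7% of all genes. Slc1a2, the main astrocyte glutamate transporter gene, differed by -0.03 (SE 0.07, adjusted p = 0.7).

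Mural cell genes rose in 5 of 7 cases (median 0.93), erythrocyte genes in 4 of 4 (0.77), ependymal genes in 3 of 3 (0.74) and endothelial genes in 6 of 7 (0.29), and none of these fell. The smooth muscle gene Myh11 had medians of 109 CPM in Chrna2-high and 34.6 CPM in Chrna2-low libraries, and differed by 0.27 with Col1a1 as a covariate (adjusted p = 0.229). Microglia genes rose in 4 of 8 cases (0.18), oligodendrocyte precursor genes in 4 of 6 with 1 lower (0.15), immediate early genes in 2 of 7 (0.10), choroid plexus genes in 0 of 3 (0.01) and cortical neuron genes in 2 of 7 with 1 lower (0.06). By comparison, 48.7% of all genes rose and 18.1% fell (median 0.126). The microglia share and the microglia and precursor medians are near these values, and are not a result about those cells. With median-of-ratios factors the counts of higher and lower genes were 4 and 3 of 8 for astrocytes, 1 and 0 of 8 for microglia, 2 and 1 of 6 for oligodendrocyte precursors and 4 and 0 of 7 for endothelium. With Col1a1 as a covariate 1 of 7 mural, 1 of 7 endothelial, 0 of 4 erythrocyte, 0 of 3 ependymal, 0 of 8 microglia and 0 of 6 precursor genes were called. Beyond this covariate, the part of these cells in the other differences was not tested.

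Oligodendrocyte genes fell in 8 of 8 cases by small amounts (median -0.34), against 18.1% of all genes. Mbp, a main protein gene of myelin, had 8524, 11871 and 18186 CPM in Chrna2-high and 11695, 16227 and 28700.1 CPM in Chrna2-low libraries (-0.46, SE 0.08, adjusted p = 7.26e-07). Cldn11, a myelin tight junction gene, fell by 0.47. The summed level of the list was 19103 to 37572 CPM in Chrna2-high and 22735 to 48830.1 CPM in Chrna2-low libraries, so the sides overlapped.

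**Figure D3:**
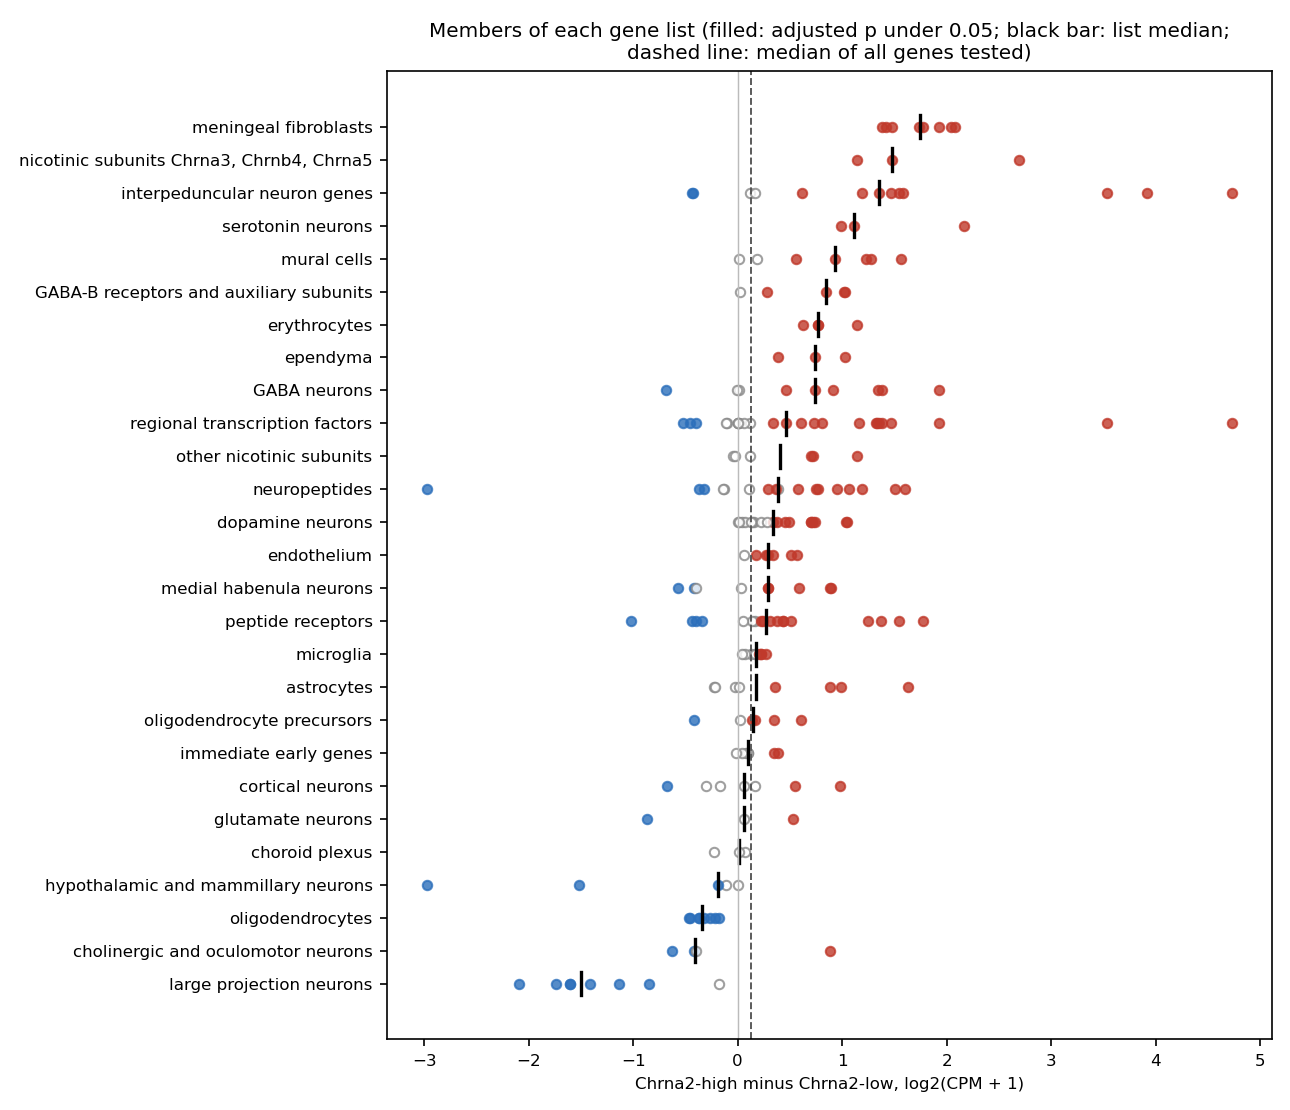
Difference of each list member between Chrna2-high and Chrna2-low libraries (horizontal axis, log2(CPM + 1)), 1 row per gene list in order of the list median (black bar). Filled red or blue points passed the test as higher or lower, open points did not, and the dashed line is the median of all genes, 0.126; meningeal fibroblast genes (median 1.75) stand at the top and large projection neuron genes (-1.50) at the bottom.

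The 81 libraries on neither side were not in the comparison of the sides that found these genes. They do belong to the same Chrna2 ranking and entered the filter on mean level, so their slopes extend that ranking. There the question was whether a gene changed with Chrna2 within the remaining range. The slope on log2(Chrna2 CPM + 1) was called for 7899 of the 15535 genes (50.8%), 5478 of them positive (35.3%) and 2421 negative (15.6%), in 80 libraries, since the 1 library with another identifier form was left out of this fit. All 420 genes higher by at least 1 had a positive slope and 354 were called, and all 63 genes lower by at least 1 had a negative slope and 57 were called. The median slope of all genes was 0.0298. Pax7 had a slope of 0.91 per log2 unit of Chrna2 (SE 0.08, adjusted p = 1.02e-16), Otp 0.90 (SE 0.07, adjusted p = 4.15e-19) and Epyc 0.95 (SE 0.12, adjusted p = 1.58e-09). Chrnb4 had 0.56 (SE 0.05, adjusted p = 2.34e-14).

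Several genes that differed between the sides had no called slope here. Chrna3 had a slope of 0.10 (SE 0.05, adjusted p = 0.0775), while its neighbour Chrna5 had 0.34 (SE 0.06, adjusted p = 3.93e-06), and the difference between these slopes was not tested. Col1a1 had 0.28 (SE 0.13, adjusted p = 0.075), Igf2 0.27 (adjusted p = 0.152), Tph2 0.21 (adjusted p = 0.321), Sst 0.21 (adjusted p = 0.0698), Nefh -0.25 (adjusted p = 0.0858) and Spp1 -0.21 (adjusted p = 0.296). Slc6a4 (0.28, adjusted p = 0.162), Chrna6 (0.09, adjusted p = 0.25), Chrnb3 (0.12, adjusted p = 0.195) and Aldh1a1 (0.09, adjusted p = 0.193) were not called either. Slc6a3 (0.21, adjusted p = 0.0276), Gch1 (0.18, adjusted p = 0.0127) and Sox6 (0.17, adjusted p = 7.05e-07) were called positive. Syt2 (-0.32, adjusted p = 0.00369), Vamp1 (-0.38, adjusted p = 5.03e-06) and Slc17a6 (-0.21, adjusted p = 0.0107) were called negative.

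**Figure D4:**
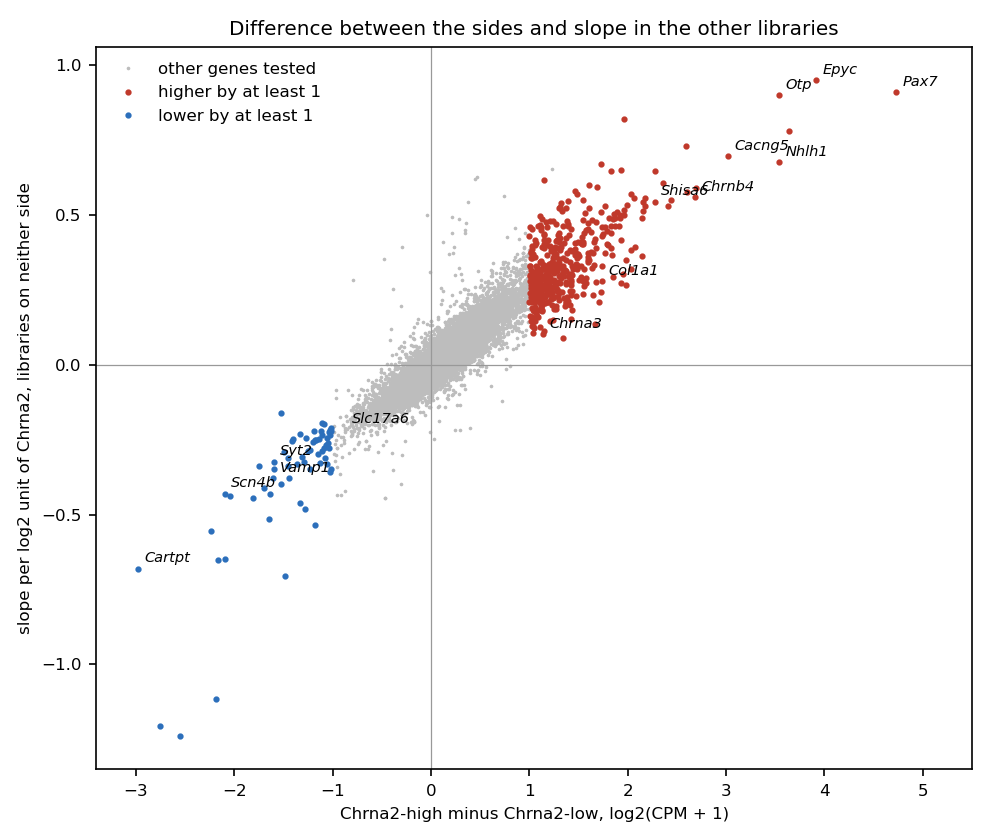
Difference between Chrna2-high and Chrna2-low libraries (horizontal axis, log2(CPM + 1)) against the slope on Chrna2 in the libraries on neither side (vertical axis, log2 units per log2 unit) for each of the 15535 genes tested. Red points are the 420 genes higher by at least 1, blue the 63 lower by at least 1 and grey the others; every red point has a positive and every blue point a negative slope.

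Among the genes whose level followed Chrna2 most closely over the 141 libraries with Th were, by Pearson correlation of log2(CPM + 1), Otp (r = 0.942), Shisa6 (0.935), Casz1 (0.926), Gfra2 (0.922), Sorcs3 (0.92), Pax7 (0.92), Tiam1 (0.918), Nhlh2 (0.913) and Trpc7 (0.912). Over the 81 libraries on neither side their values were 0.765 (Nhlh2) to 0.904 (Tiam1). They are descriptions, since Chrna2 chose the libraries and all genes of a library share its depth. Casz1, a zinc finger factor gene, had 19.4, 26.9 and 41.5 CPM in Chrna2-high and 2.44, 6.34 and 9.26 CPM in Chrna2-low libraries. Gfra2, the neurturin receptor gene, had medians of 138 CPM and 44.5 CPM in the same order, and neither gene overlapped between the sides.

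Of 34 genes within 1 Mb of the Chrna2 position, 21 were tested, and 12 rose and 3 fell (median 0.14, close to the 0.126 of all genes). With median-of-ratios factors 7 rose and 5 fell. Besides Pnoc, those higher were Fzd3 (1.15), Scara5 (0.95), Scara3 (0.82), Adra1a (0.71), Zfp395 (0.39), Extl3 (0.29), Ptk2b (0.24), Trim35 (0.18), Stmn4 (0.14), Pnma2 (0.13) and Elp3 (0.10, but -0.03 with median-of-ratios factors). Those lower were Esco2 (-0.39), Ppp2r2a (-0.14) and Dpysl2 (-0.10). Adra1a, an adrenergic receptor gene, had medians of 44.8 CPM in Chrna2-high and 27.6 CPM in Chrna2-low libraries.

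The 2 identifier formats were also fitted apart. Of the 420 genes higher by at least 1, 415 were higher in decimal and 420 in hexadecimal libraries, and of the 63 lower genes 59 and 63 were lower. The difference changed with the format for 5 of 15535 genes (0.0322%) in limma's interaction test, with 3710 at an unadjusted p under 0.05, and for 0 of 132 named genes. Pax7 differed by 5.64 in decimal and 4.33 in hexadecimal libraries, Chrnb4 by 3.43 and 2.36 in the same order, and Vamp1 by -1.53 and -1.63.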

How the data were processed

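Per the submitters' processing notes, the authors quantified reads with kallisto 0.48, which assigns reads to transcripts and returns estimated counts. The deposited table holds log2 values for 38354 genes; that they are log2(estimated count + 1) was read from the values, since 55.7% of the back-transformed values below 100 are whole within 0.001. No build is named in the sources used here. Positions are the file's. Gene types and promoters came from RefSeq (GRCr8), where 38272 symbols matched.

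Values were back-transformed and scaled to 1000000 per library (15.2 to 57.2 M, median 24.3 M). Genes with a mean log2(CPM + 1) of at least 1 over the 152 libraries were tested, Chrna2 left out. No pair of libraries shared more than 1.04% of its values. Tests used limma 3.58.1 in R 4.3.3 with identifier format as covariate and an adjusted p under 0.05. The fit was also run on simulated counts with independent genes, the same spread setting for all genes and few changed genes. Such counts lack the differences that many genes share here, so that run cannot vouch for the number of genes called. Permutation used 100000 resamples (scipy 1.17.1). Chrna2 chose the sides, and the members, gene lists and tests were chosen with earlier results of these data known. Named were the 15 largest differences per direction among called genes with 1 direction in both formats, list members, the 10 closest correlations with Chrna2 and called genes within 1 Mb of it. Some genes that meet this rule are not reported here. Egln3 and Slc6a5 were chosen after their values were seen. The 20 alternatives change the covariates, the libraries, the number per side, the ranking gene, the pseudocount, the filter, the scaling and limma's prior.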

Additional observations from a re-analysis of the deposited data

How the results depend on the processing

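Of 2609 values of 132 named genes under 20 alternatives, 2404 kept their direction and side of the threshold, 125 lost and 17 gained the call, and 63 values of 24 genes changed sign, 22 of them where at least 1 of the 2 values was called. The counts of higher and lower genes were 3914 and 1351 in decimal libraries alone (fewer libraries), 4099 and 1383 with Col1a1 as a covariate, and 5003 and 1864 with Syt2 as a covariate, both covariates chosen after seeing the data. Median-of-ratios size factors gave 5100 higher and 4870 lower genes, by centring all genes near 0. Under the other 16 alternatives both counts stayed within 1.5 times of 7567 and 2816. With the Syt2 covariate the sign turned for Scn4b (0.17), C1ql2 (0.38), Crhr1 (0.02), Gabbr1 (-0.18), Slc17a6 (0.01), Th (-0.59), Otx2 (-0.43), Pvalb (0.04), Spp1 (1.24), Nefh (0.49), Slc1a2 (0.08), Nefl (0.48), Nefm (0.41), Chat (0.18) and Esrrg (0.63). With the Col1a1 covariate it turned for Sall3 (-0.01), Slc17a7 (-0.87), En1 (0.29), Spp1 (0.02) and Igf2 (-0.16), and with Th as a covariate for Otx2 (-0.01). Decimal libraries alone turned Chrna7 (0.06), Sall3 (-0.10), Pou4f1 (-0.34), Gad2 (-0.10), Slc17a7 (-0.29) and En1 (0.43), and hexadecimal libraries alone Gabbr1 (-0.01), Th (-0.19), Otx2 (-0.07) and Slc1a2 (0.09). Median-of-ratios factors turned Chrna4 (-0.02), Sall3 (-0.0039), Gabbr1 (-0.12), Pou4f1 (-0.09), Slc17a7 (-0.04), Th (-0.09), Otx2 (-0.11) and Elp3 (-0.03). Ranking by Chrnb4 turned Sall3 (-0.03), Gad2 (-0.01), Slc17a7 (-0.11) and En1 (0.35). A pseudocount of 5 turned Pou4f1 (-0.04), Slc17a7 (-0.09) and Otx2 (-0.0027), and a fit without the format covariate Th (-0.02) and Otx2 (-0.01). With 20 libraries per side the sign turned for En1 (0.08) and Otx2 (-0.02), and with 40 for Pou4f1 (-0.02) and Th (-0.03). It turned without libraries over 100 CPM of Slc17a7 for Pou4f1 (-0.08), Th (-0.01) and Otx2 (-0.03), and without relabelled libraries for En1 (0.08). Slopes on Chrna2 had the other sign for Chrna7 (0.01), Gabbr1 (-0.0011), Pou4f1 (-0.02), Th (-0.09), Slc1a2 (0.01) and Chat (0.08) in the libraries on neither side, and for En1 (0.02) in all libraries with Th. The causes were not tested. No paired analysis was possible because replicate numbers were given in accession order. Genes under about 1 CPM rest on few counts, and a count of 0 allows up to 0.198 CPM in the shallowest of the 60 libraries.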

Other observations

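The genes given here were chosen after their values were seen, and Kit, Kitlg, Htr1b and Ebf2 did not overlap between the sides. Kit, a receptor tyrosine kinase gene, had 76.7, 103 and 148 CPM (lowest, median, highest) in Chrna2-high and 18.6, 33.4 and 69.4 CPM in Chrna2-low libraries, and its ligand gene Kitlg 41.2, 54.7 and 86.97 CPM against 10.4, 18.7 and 35.9 CPM. Both rose, by 1.65 (SE 0.09, adjusted p = 2.06e-23) and 1.46 (SE 0.09, adjusted p = 2.76e-21) in limma. Htr1b, a serotonin receptor gene often found on axon terminals, rose by 1.22 (SE 0.09, adjusted p = 6.84e-17), and the transcription factor gene Ebf2 by 1.84. Slc7a10, the gene of a transporter of glycine and serine, fell (-1.25, SE 0.08, adjusted p = 1.98e-20), with medians of 24.3 CPM in Chrna2-high and 59.95 CPM in Chrna2-low libraries, and 1 library of each side overlapped the other side. The neurofilament genes Nefl (-1.27) and Nefm (-1.33) fell with Nefh.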
